A study of Mus musculus with 5 samples.

Results

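The 7 genes described here encode the carriers with which the proximal tubule takes phosphate and glucose out of the filtrate, with its main sodium-proton exchanger and its basolateral bicarbonate exit: Slc34a1, Slc34a3, Slc5a1, Slc5a2, Slc2a2, Slc9a3 and Slc4a4. They were taken by symbol from 28692 gene identifiers in 4 droplet libraries of mouse kidney cells. They were followed in proximal tubule cells, which were gated on at least 1 UMI (unique molecular identifier, a count of captured transcripts) of each of 3 genes: Lrp2, the endocytic receptor megalin; Gatm, a creatine synthesis enzyme; and Miox, an inositol oxygenase. The gate held 3494 of 13332 cells kept after filtering.

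As background, phosphate crosses the apical membrane with sodium through NaPi-IIa (Slc34a1) and NaPi-IIc (Slc34a3), both held there by PDZ scaffold proteins and withdrawn from it when parathyroid hormone or the FGF23 and Klotho pathway is active. Glucose enters with sodium in bulk through SGLT2 (Slc5a2) in the early segments, S1 and S2. The remainder enters through SGLT1 (Slc5a1) in the straight segment, S3, and glucose leaves to the blood side through GLUT2 (Slc2a2). Sodium-proton exchange by NHE3 (Slc9a3) drives bicarbonate recovery, and NBCe1 (Slc4a4) passes the bicarbonate on through the basolateral membrane.

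Each library was prepared from the pooled kidney cells of 3 C57/BL6 mice aged 8 weeks. Unilateral ureteric obstruction (UUO), a ligation that blocks the outflow of 1 kidney, was sampled on day 2 and day 7, beside a sham operation taken as day 0. The reversed library came from mice studied 7 days after the obstruction was released, on experimental day 14. No sham library of that later day was analysed here. All 4 were made from kidneys digested on ice and sorted only for viability with DAPI, and none carries a transgene in its labels. The purpose stated in the series' title is to follow renal myeloid cells through a reversible obstruction, and the tubule cells were caught in the same suspensions. With 1 pooled library for each condition, no test between conditions exists. All intervals in the text are 95% intervals for counting error alone, and differences between mice, dissections and runs are not in them.

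The gate held 2025 sham, 365 day 2, 107 day 7 and 997 reversed cells, which was 54.1%, 16.9%, 2.50% and 31.8% of the kept cells. The median gated cell held between 2042 and 5739 UMIs outside the mitochondrial genes, with the least in sham and the most on day 7. The label proximal tubule was checked on 8 other tubule genes, all detected in every library, whose summed level was 12911, 7714, 6741 and 8282 CPM (counts scaled to 1000000 UMIs outside the mitochondrial genes) in sham, day 2, day 7 and reversed gated cells. In cells that passed the phagocyte gate but not the proximal tubule gate, the same sum lay between 355 and 1200 CPM. Because gated proximal tubule cells are left out of these phagocyte-gate cells by rule, part of this contrast is fixed in advance. The 3 gate genes themselves summed to 8311, 3385, 2635 and 5720 CPM in gated cells, so both gates select on genes whose levels differed between libraries. The part of that selection in the members' levels was not tested. The gate was not equally clean in the 4 libraries. All 5 phagocyte markers were detected in gated cells of every library, and their summed level was 103, 1227, 3794 and 3900 CPM in the same order. Among gated cells 9, 67, 80 and 242 also passed the phagocyte gate, which was 0.444%, 18.4%, 74.8% and 24.3%. Levels are therefore given, where it matters, both over all gated cells and over a purer gate that was chosen after these values were seen. The purer gate keeps the 1982, 307, 48 and 863 gated cells whose UMIs of other cell types' markers are fewer than their gate UMIs. Even there the phagocyte markers summed to 54.9, 491, 1968 and 978 CPM, and their part in the differences between libraries was not tested. In summed cells, fewer transcripts per tubule cell and a larger admixture of other cells cannot be told apart.

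The promoter sequences of 3 members show the stretch before the start site of the principal phosphate carrier (Slc34a1), of the carrier with the lowest day 7 ratio to sham (Slc34a3) and of the shared glucose exit (Slc2a2). They run from 250 bases before the RefSeq start site to 50 after it, 5′ to 3′ on the gene's strand, in build GRCm38.p6. The single capital marks the start site. The Slc34a1 promoter is chr13:55399398-55399697 on the plus strand, the Slc34a3 promoter chr2:25234185-25234484 on the minus strand, and the Slc2a2 promoter chr3:28697653-28697952 on the plus strand.

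Slc34a1: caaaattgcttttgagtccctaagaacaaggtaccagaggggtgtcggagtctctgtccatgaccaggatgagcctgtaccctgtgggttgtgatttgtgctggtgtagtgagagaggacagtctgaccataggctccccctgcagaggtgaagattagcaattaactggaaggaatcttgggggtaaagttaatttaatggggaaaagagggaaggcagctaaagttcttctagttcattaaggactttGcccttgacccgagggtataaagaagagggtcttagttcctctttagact

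Slc34a3: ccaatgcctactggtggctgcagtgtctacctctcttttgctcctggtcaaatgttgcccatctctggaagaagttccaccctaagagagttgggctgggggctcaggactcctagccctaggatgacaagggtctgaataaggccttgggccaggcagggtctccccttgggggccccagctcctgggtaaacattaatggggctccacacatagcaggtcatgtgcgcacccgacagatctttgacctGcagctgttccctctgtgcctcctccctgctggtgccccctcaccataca

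Slc2a2: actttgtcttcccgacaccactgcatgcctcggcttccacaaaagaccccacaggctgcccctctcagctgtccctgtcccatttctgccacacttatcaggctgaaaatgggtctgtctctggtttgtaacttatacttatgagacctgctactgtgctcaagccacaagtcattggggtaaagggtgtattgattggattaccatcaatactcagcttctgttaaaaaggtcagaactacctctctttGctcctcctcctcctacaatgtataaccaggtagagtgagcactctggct

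Promoters of all members but Slc5a2 were matched, 7 in number because Slc4a4 has a pair of start sites. The letters CAAAGTCCA, a site of the tubule factor HNF4, were on neither strand of the 7, and on either strand of 0.475% of 32851 promoters of the same length. This says only that these letters are not in these windows.

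Slc34a1, the principal phosphate carrier of the tubule, had lower levels in all 3 libraries after obstruction than in sham. Its gene lies at chr13:55398187-55415592 (GRCm38, plus strand). Sham gated cells held 4697 CPM, day 2 cells 2298, day 7 cells 1609 and reversed cells 2986. The day 2 level was 48.9% of sham, a log2 ratio of -1.03 (-1.08 to -0.98), the day 7 level 34.2% of sham (-1.55, -1.63 to -1.46) and the reversed level 63.6% of sham (-0.65, -0.68 to -0.62). The 4 intervals on the levels did not overlap. The purer gate gave 4843, 2651, 2684 and 4011 CPM. There day 2 and day 7 were alike within counting error (log2 ratio of day 7 to day 2 0.02, -0.11 to 0.14), where all gated cells had given -0.51 (-0.61 to -0.42). Both gates kept the order of sham above reversed and reversed above the obstructed libraries. With at most 20% mitochondrial UMIs in each cell, which left 143 sham and 258 reversed cells, the reversed ratio to sham was -1.46. In all gated cells the single-cell level of Slc34a1 had a median of 4278 CPM with quartiles of 2869 and 6226 in sham, against a median of 1686 with quartiles of 1085 and 3061 on day 7.

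Slc34a3, the second sodium-phosphate carrier of the same membrane (chr2:25228898-25234364, minus strand), had the largest ratio between sham and day 7 among the members. Sham cells gave 444 UMIs, day 2 cells 54, day 7 cells 5 and reversed cells 348, or 89.99, 31.0, 6.88 and 69.6 CPM. The day 2 level was 34.4% of sham (log2 ratio -1.51, -1.93 to -1.11) and the day 7 level 7.65% of sham (-3.53, -4.82 to -2.40). The reversed level was 77.4% of sham (-0.37, -0.57 to -0.16) and 10.1 times that of day 7 (3.16, 2.04 to 4.46). The day 7 value stands on 5 UMIs, and on 3 UMIs in the purer gate, where it was 13.1 CPM with a log2 ratio to sham of -2.74 (-4.68 to -1.25). In the purer gate the sham and reversed levels were 93.3 and 95.6 CPM, a log2 ratio of 0.03 (-0.17 to 0.24), so the shortfall of the reversed library was not seen there. With at most 20% mitochondrial UMIs in each cell it was larger, at a log2 ratio of -1.03. Within the pair of phosphate carriers, Slc34a3 supplied 1.88% of UMIs in sham cells (Clopper-Pearson interval 1.71% to 2.06%), 1.33% in day 2 cells (1.00% to 1.73%), 0.426% in day 7 cells (0.138% to 0.991%) and 2.28% in reversed cells (2.05% to 2.53%). The day 7 share, on 5 Slc34a3 UMIs, lay below those of all other libraries. Its interval ended at 0.991%, just short of the 1.00% at which that of day 2 began. The intervals of the reversed and sham shares overlapped at their edges. These shares are over all gated cells and were not computed on the purer gate. The mix of tubule segments also differed between libraries, and its part in the share was not tested. Other cell types enter this share in the proportion in which they carry the pair. Phagocyte-gate cells held 1, 1, 3 and 8 Slc34a3 UMIs in sham, day 2, day 7 and the reversed library. Beside these stood 79, 291, 667 and 592 Slc34a1 UMIs. The part of such cells in the share was not tested.

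**Figure D1:**
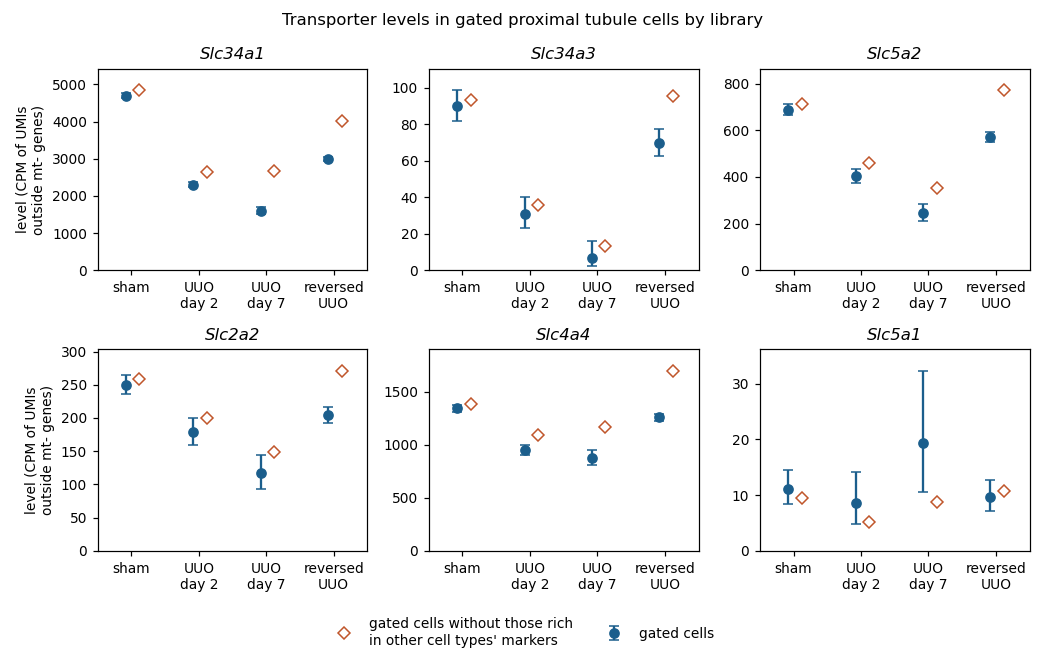
Level of 6 transporters in gated proximal tubule cells, in CPM of UMIs outside the mitochondrial genes, by library. Filled circles are all gated cells with 95% Poisson intervals for counting error, and open diamonds the purer gate; over all gated cells Slc34a1 lies between 1609 and 4697 CPM, it is highest in sham on both gates (4843 CPM on the purer one), while Slc5a1 stays under 20 CPM.

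Slc5a2, the bulk glucose carrier SGLT2 (chr7:128265657-128272430, plus strand), was lower on both days of obstruction. Sham cells held 688 CPM, day 2 cells 405, day 7 cells 246 and reversed cells 570, with no overlap of the 4 counting intervals. Day 2 stood at 58.8% of sham (log2 ratio -0.76, -0.88 to -0.65), day 7 at 35.8% (-1.48, -1.70 to -1.26) and the reversed library at 82.8% (-0.27, -0.34 to -0.20). The reversed level was 2.31 times that of day 7 (1.21, 0.99 to 1.43). In the purer gate the levels were 710, 459, 353 and 771 CPM, so that the reversed library stood above sham there (0.12, 0.05 to 0.19) and day 7 at a log2 ratio of -1.005 (-1.34 to -0.69).

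Slc2a2, the basolateral glucose exit GLUT2 (chr3:28697903-28731359, plus strand), followed the same order, with ratios nearer to 0 than those of Slc5a2 on both days of obstruction. Its CPM was 249.9 for sham cells, 178 for day 2, 117 for day 7 and 204 for reversed cells. The log2 ratio to sham was -0.48 for day 2 (-0.67 to -0.30), -1.09 for day 7 (-1.42 to -0.77) and -0.29 after reversal (-0.41 to -0.17). On the purer gate these were -0.37, -0.80 and 0.07, and the interval of the last included 0. With every cell thinned to 500 UMIs before gating, which left 6 cells on day 7, the day 7 ratio turned to 1.63.

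Slc5a1, the high-affinity glucose carrier SGLT1 (chr5:33104219-33162870, plus strand), was counted on few UMIs in gated cells. Sham cells gave 55 UMIs, day 2 cells 15, day 7 cells 14 and reversed cells 48, or 11.1, 8.60, 19.3 and 9.60 CPM. Over all gated cells, the interval of each ratio to sham included 0. The day 7 level was 2.24 times that of day 2 (log2 ratio 1.08, 0.00 to 2.12) in all gated cells. On the purer gate, which held 2 UMIs on day 7, the log2 ratio was 0.67 (-1.81 to 2.76). A same-strand gene overlaps the locus in the annotation and is not counted in the files. Slc34a1, Slc5a1, Slc5a2 and Slc2a2 each overlap a gene on the opposite strand, and whether the counting used strand is not given in the sources used here.

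Slc4a4, the basolateral sodium-bicarbonate carrier NBCe1 (chr5:88886818-89239653, plus strand), had the ratios to sham nearest to 0 of the 5 well-counted members on day 7 and after reversal, over all gated cells. Sham cells held 1346 CPM, day 2 cells 949, day 7 cells 877 and reversed cells 1258. The log2 ratios to sham were -0.50 (-0.58 to -0.43), -0.62 (-0.74 to -0.50) and -0.10 (-0.15 to -0.05). Day 7 and day 2 did not differ beyond counting error (-0.11, -0.25 to 0.02). The purer gate gave 1389.6, 1091, 1165 and 1700.0 CPM. There the reversed library turned to a level above sham (0.29, 0.24 to 0.34), and the day 7 ratio to sham was -0.25 (-0.44 to -0.08).

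Slc9a3, the apical sodium-proton exchanger NHE3 (chr13:74121457-74169442, plus strand), was counted only 3, 1, 1 and 3 times in the gated cells of sham, day 2, day 7 and the reversed library. These counts are at or under 3, which corresponds to 0.608, 1.72, 4.13 and 0.600 CPM, so no ratio is given. Its transcripts were not measurable in these 3′ counts, which does not show that the exchanger was absent, and the reason for the low count was not tested.

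Read against the whole transcriptome, 2 of 7 members were at least 2 times lower on day 2 than in sham (Slc34a1 and Slc34a3) and 0 at least 2 times higher. Of 5915 genes with 20 CPM or more in the higher library, 2.92% were lower and 5.83% higher by that rule. In each comparison 5 of the 7 members reached 20 CPM, all but Slc5a1 and Slc9a3. On day 7 against sham 4 of 7 members were lower (Slc34a1, Slc34a3, Slc5a2 and Slc2a2) and 0 higher, where 5.66% of 6593 genes were lower and 17% higher. For the reversed library against sham the members gave 0 lower and 0 higher, against 0.459% and 11% of 6323 genes. Between day 7 and day 2, 1 member was lower (Slc34a3) and 1 higher (Slc5a1, on 14 and 15 UMIs), against 2.23% and 9.42% of 6606 genes. At 19.3 CPM Slc5a1 is below the minimum set for those genes, and 0 of the 5 members above it were higher. From day 7 to the reversed library 0 members were lower and 2 higher (Slc34a3 and Slc5a2), against 2.62% and 2.71% of 6727 genes. Just inside and just outside the factor of 2 stood Slc34a1 at -1.03 and Slc5a2 at -0.76 on day 2, and Slc2a2 at -1.09 and Slc4a4 at -0.62 on day 7.

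The median log2 ratio of the 6 members with a ratio was -0.63 on day 2, -1.28 on day 7 and -0.28 after reversal against sham, beside medians over all genes of 0.01, 0.19 and 0.09. It was -0.56 from day 2 to day 7 and 0.84 from day 7 to the reversed library, beside 0.15 and -0.04. The comparisons share the sham and day 7 libraries and are not independent of each other. The purer gate changed the counts: 1 member was lower on day 2 (Slc34a3, since Slc34a1 stood at -0.87) and 2 on day 7 (Slc34a3 and Slc5a2), with 0 higher. On that gate 2.21% of 5750 genes were lower and 4.78% higher on day 2, and 5.66% of 6328 lower and 15.4% higher on day 7. After reversal 0 members passed in either direction there, against 0.175% lower and 3.33% higher of 5710 genes. Leaving out the cells that also passed the phagocyte gate left 298 cells on day 2 and 27 on day 7. In these cells 1 member was lower on day 2 and 1 on day 7, Slc34a3 in both, with 0 higher. The shares of all genes were then 2.84% lower and 4.78% higher on day 2, and 11% lower and 17.6% higher on day 7. For the reversed library that setting gave 0 members in either direction, against 0.216% and 6.16%.

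**Figure D2:**
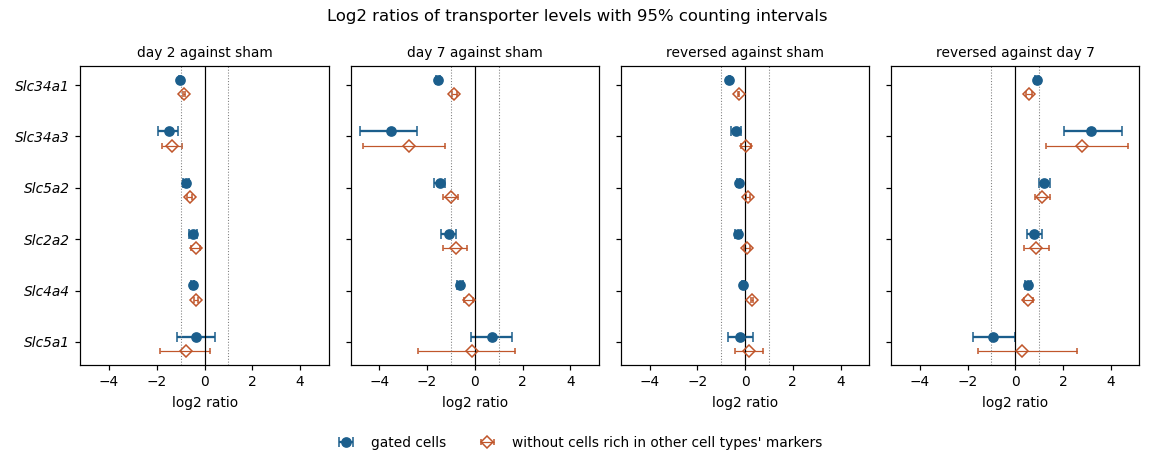
Log2 ratio of the level of 6 transporters between pairs of libraries, with 95% counting intervals, for all gated cells (filled circles) and the purer gate (open diamonds); dotted lines mark a factor of 2. Slc34a1, Slc34a3, Slc5a2, Slc2a2 and Slc4a4 lie left of 0 on both days of obstruction on both gates, and after reversal the ratios of Slc34a3, Slc5a1, Slc5a2, Slc2a2 and Slc4a4 to sham change sign between the gates.

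At the same depth of 500 UMIs drawn from each cell, no gated cell being shallower, 86.4% of sham cells held a Slc34a1 UMI (84.8% to 87.8%), 65.5% of day 2 cells (60.4% to 70.4%), 57.0% of day 7 cells (47.1% to 66.5%) and 73.9% of reversed cells (71.1% to 76.6%). Without thinning these shares were 98.8%, 96.7%, 93.5% and 96.1%. In phagocyte-gate cells, which should lack the gene, the thinned share was 16.9%, 3.97%, 2.26% and 10.9%, at median depths of 2724, 8415, 5603 and 5510 UMIs. Slc34a1 was thus counted in most gated cells of every library, above its share in phagocytes, and all quartiles of its single-cell level were lower in each later library than in sham.

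The thinned share of Slc5a2 was 28.2%, 17.8%, 15.9% and 27.8% in sham, day 2, day 7 and reversed cells, beside 4.62%, 0.626%, 0.301% and 1.93% of phagocytes. For Slc4a4 it was 46.2%, 38.4%, 34.6% and 45.8%, beside 1.54% to 3.00% of phagocytes. The unthinned shares of Slc5a2 were 64.3%, 63.8%, 55.1% and 73.7%, and those of Slc4a4 82.8%, 88.8%, 88.8% and 88.3%, at depths that differed between libraries. The share of Slc34a3 was 4.74%, 1.64%, 0.935% and 5.02%, beside 1.54%, 0%, 0% and 0.214% of phagocytes, with intervals that overlapped in all libraries but the reversed one, and unthinned 16.8%, 12.1%, 4.67% and 22.9%. For Slc2a2 it was 11.6%, 8.22%, 12.1% and 11.2%, beside at most 0.857% of phagocytes, and unthinned 40.2%, 46.6%, 49.5% and 52.6%. The day 7 share of Slc2a2 and the reversed share of Slc34a3 went against the CPM, and no order was read from them. The thinned Slc5a1 shares, from 0.274% to 1.87%, rest on 13, 1, 2 and 8 cells with a UMI. Their intervals overlapped those of phagocytes in each library, so the thinned shares did not stand apart from background. Unthinned they were 2.22%, 3.01%, 7.48% and 4.21%, beside 0%, 2.51%, 1.26% and 1.93% of phagocytes. In CPM, Slc5a1 stood at 19.3 in gated cells and 2.21 in phagocytes on day 7, and at 9.60 and 3.51 in the reversed library. The counting intervals of these levels did not overlap in those libraries, but did in sham and on day 2.

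**Figure D3:**
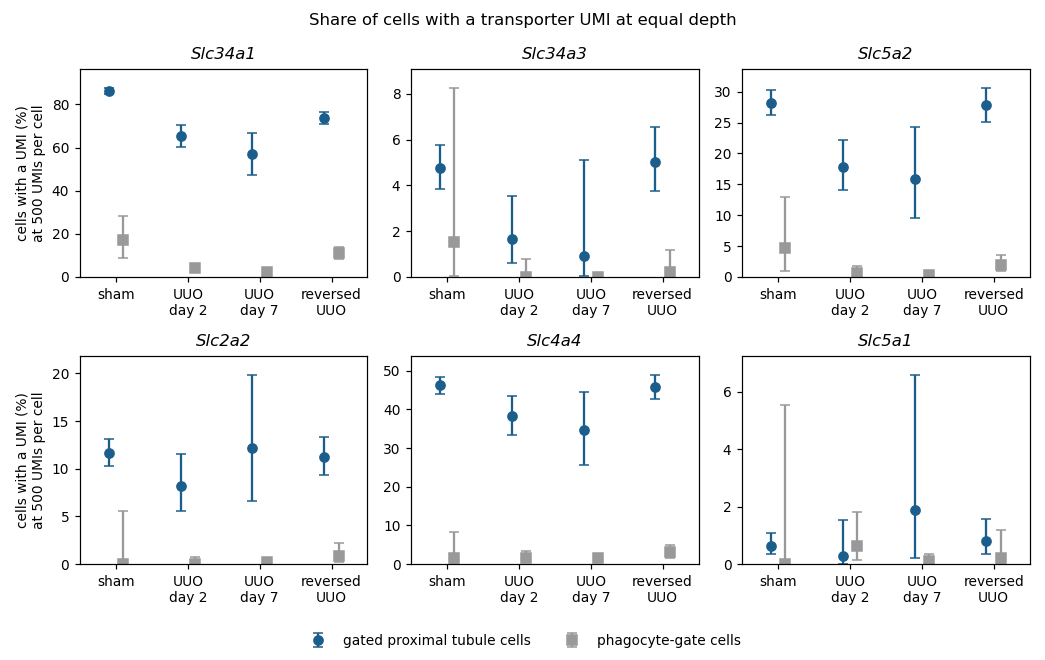
Share of cells with a UMI of each transporter after thinning every cell to 500 UMIs, with Clopper-Pearson 95% intervals, in gated proximal tubule cells (circles) and phagocyte-gate cells (squares) of each library. Slc34a1 was counted in 57.0% to 86.4% of gated cells and in 2.26% to 16.9% of phagocytes.

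The members differed by segment. Gated cells were called S1/S2-leaning or S3-leaning by which of 2 marker lists had more UMIs, a range along a score and not a cell type: 1393, 302, 58 and 676 cells leaned to S1/S2 in sham, day 2, day 7 and the reversed library, and 268, 24, 30 and 169 to S3. Cells within 1 UMI of equality numbered 816, 97, 38 and 328. In sham Slc5a2 stood at 826 CPM in S1/S2-leaning and 191 CPM in S3-leaning cells, a log2 ratio of S3 to S1/S2 of -2.11 (-2.36 to -1.86), and Slc34a3 at 113 and 19.1 CPM (-2.50, -3.33 to -1.77). Slc2a2 (-0.87, -1.16 to -0.59) and Slc4a4 (-0.97, -1.10 to -0.85) were also lower in S3-leaning cells. Slc34a1 was close to even, at 4930.4 and 4491 CPM (-0.13, -0.19 to -0.08). Slc5a1 was the reverse, at 5.60 CPM in S1/S2-leaning and 39.5 CPM in S3-leaning cells (2.62, 1.82 to 3.40), on 20 and 29 UMIs.

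The reversed library, measured apart from sham, gave the same ordering: Slc5a2 -1.65, Slc34a3 -2.03, Slc2a2 -0.62, Slc4a4 -0.62, Slc34a1 0.02 and Slc5a1 3.12 (2.21 to 4.00). On day 2 the S3-leaning cells were 24, with 4 Slc5a1 UMIs and 0 of Slc34a3, which at 3 counts allows up to 24.6 CPM. On day 7 Slc5a2 was again lower in S3-leaning cells (-1.73, -2.48 to -1.06), and Slc34a1 was higher in them (0.52, 0.34 to 0.70). The day 7 intervals of Slc5a1 (0.33, -1.48 to 1.98, on 9 and 5 UMIs) and Slc34a3 (-0.70, -3.45 to 2.22, on 4 and 1 UMIs) included 0, as did that of Slc2a2 (-0.46, -1.28 to 0.30). In sham and the reversed library SGLT2 and SGLT1 thus lay on opposite sides of an even level, with Slc34a1 close to it. Thinning every cell to 500 UMIs before gating left 641 sham cells and turned the sham ratios of Slc5a2 to 0.24, Slc34a3 to 0.021 and Slc5a1 to -3.99.

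**Figure D4:**
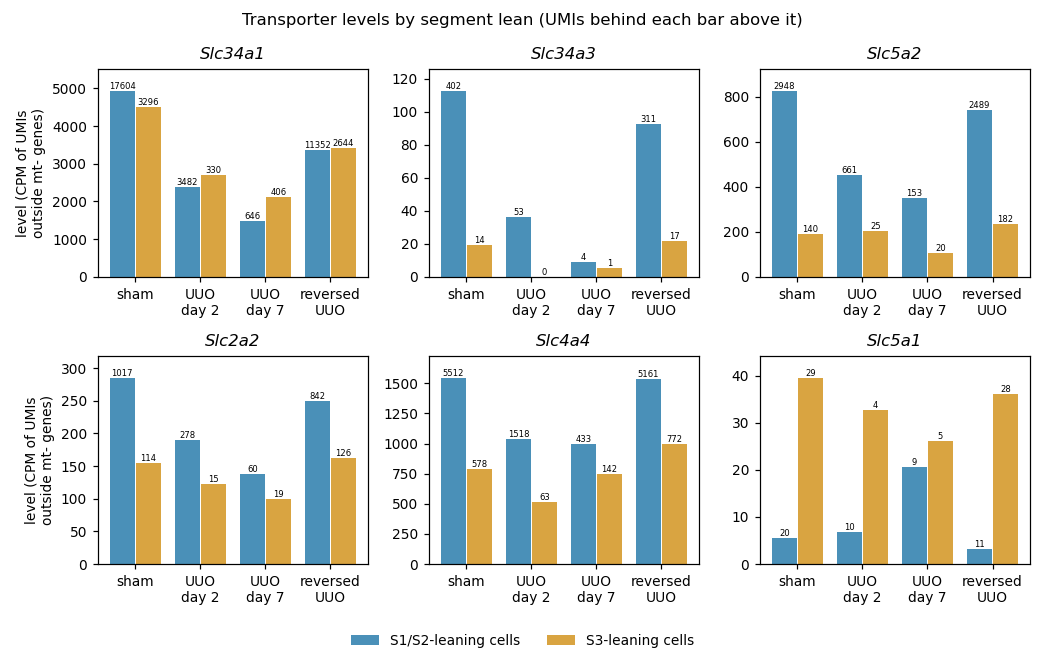
Level of 6 transporters in CPM in S1/S2-leaning and S3-leaning gated cells of each library, with the number of UMIs printed above each bar. Slc5a2 and Slc34a3 are higher in S1/S2-leaning cells and Slc5a1 in S3-leaning cells of sham and the reversed library, and bars on fewer than 10 UMIs are imprecise.

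The mix of segments changed between libraries: S3-leaning cells were 16.1% of leaning cells in sham (14.4% to 17.99%), 7.36% for day 2 (4.77% to 10.8%), 34.1% for day 7 (24.3% to 45.0%) and 20% in the reversed library (17.4% to 22.9%). Within S1/S2-leaning cells alone, the day 2 ratios to sham were -1.05 for Slc34a1, -1.61 for Slc34a3, -0.87 for Slc5a2, -0.58 for Slc2a2 and -0.57 for Slc4a4, all with intervals below 0. Day 7 gave -1.73, -3.48, -1.23, -1.05 and -0.64 for the same genes. Over all gated cells, day 7 had given -1.55, -3.53, -1.48, -1.09 and -0.62, so that Slc5a2 differed most between the selections among these 5. Slc5a1, on 20 sham and 9 day 7 UMIs, stood at 1.71 (0.50 to 2.80) in S1/S2-leaning cells on day 7, against 0.74 (-0.16 to 1.56) over all gated cells. Limb markers summed to 951 CPM in those day 7 cells and to 558 CPM in those of sham, and their part in this value was not tested. After reversal the ratios to sham were -0.55, -0.28, -0.16, -0.19 and -0.01, and the interval of Slc4a4 included 0 (-0.06 to 0.05). In S3-leaning cells Slc34a1 was also lower, with log2 ratios to sham of -0.73 for day 2 (-0.90 to -0.57), -1.08 for day 7 (-1.23 to -0.93) and -0.40 after reversal (-0.47 to -0.32). Slc5a2 in S3-leaning cells did not differ from sham beyond counting error on day 2 (0.10, -0.57 to 0.72) and was lower on day 7 (-0.86, -1.60 to -0.18), on 140 sham, 25 day 2 and 20 day 7 UMIs. After reversal the interval included 0 (0.30, -0.02 to 0.63).

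Across the other cell gates of the same suspensions, Slc5a1 stood apart from the other members. Cells gated as thick ascending limb, the salt-reclaiming segment marked by Umod and Slc12a1, held 260 CPM of Slc5a1 in sham (127 UMIs in 193 cells), 167 on day 2 (172 UMIs in 173 cells) and 193 in the reversed library (135 UMIs in 155 cells). These were 23.4, 19.4 and 20.1 times the levels in the proximal tubule gate of the same libraries. The day 7 limb gate had 22 cells, under the minimum of 30, with 26 Slc5a1 UMIs. A Slc5a1 UMI was present in 38.3%, 41.6% and 42.6% of limb cells of sham, day 2 and the reversed library. Against sham the limb level had log2 ratios of -0.64 (-0.98 to -0.30) on day 2 and -0.43 (-0.79 to -0.07) after reversal. The limb markers were lower there too, with a summed level of 42174 CPM in sham, 18040 on day 2 and 25627 in the reversed limb cells, and their part in these ratios was not tested.

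The other well-counted members were lower in the limb gate, at 19.2% of the proximal level for Slc34a1, 8.34% for Slc5a2 and 12.2% for Slc4a4 in sham, and at 2.66%, 2.15% and 3.78% on day 2. Of all Slc5a1 UMIs in kept cells, the proximal gate held 25.7%, 3.72%, 5.07% and 14.6% in sham, day 2, day 7 and the reversed library. For Slc34a1 it held 76.3%, 70.3%, 46.6% and 80.6%. The limb gate held 59.3%, 42.7%, 9.42% and 41.2% of the Slc5a1 UMIs. Cells in none or in several of the other gates held 30 of 214, 188 of 403, 209 of 276 and 127 of 328. Conversely, limb markers were present in the proximal gate, with all 4 detected in every library at summed levels of 618, 610, 626 and 465 CPM. For every 100 limb-marker UMIs, Slc5a1 gave 0.617 UMIs in sham limb cells (0.514 to 0.735) and 0.924 in those of day 2 (0.791 to 1.07). It gave 1.00 UMI in sham S1/S2-leaning cells (0.612 to 1.55) and 6.78 in sham S3-leaning cells (4.48 to 9.87). In the reversed library limb cells gave 0.752, S1/S2-leaning cells 0.830 and S3-leaning cells 7.76. In sham and the reversed library the interval of S1/S2-leaning cells overlapped that of limb cells, and the interval of S3-leaning cells lay above it. All gated cells together gave 1.80 in sham, 1.41 on day 2 and 2.07 in the reversed library. Their interval lay above that of limb cells in sham and the reversed library, and overlapped it on day 2. The source of the Slc5a1 UMIs in gated cells was not tested.

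**Figure D5:**
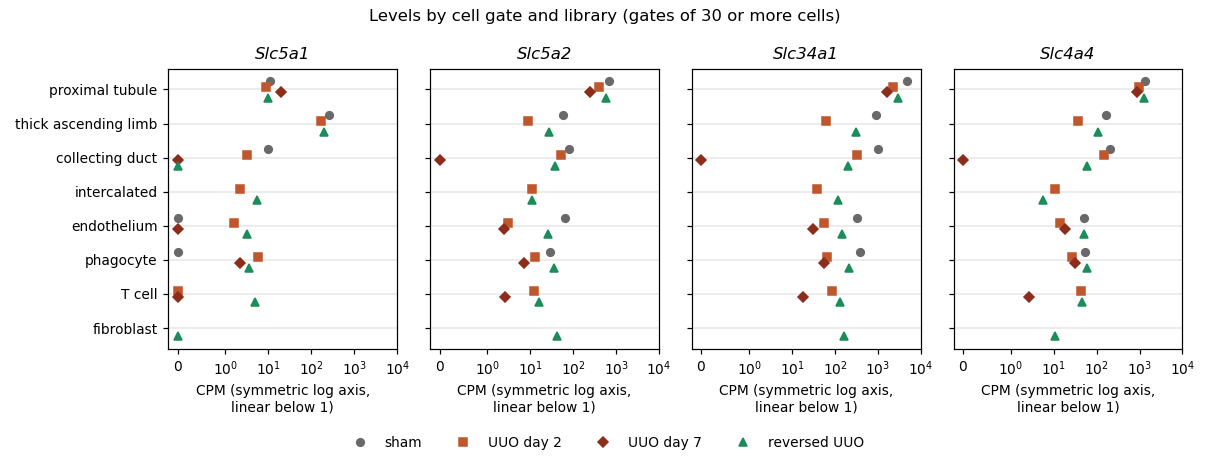
Level in CPM of Slc5a1, Slc5a2, Slc34a1 and Slc4a4 in cells of 8 gates, by library, for gates of 30 or more cells. Slc5a1 lies at 167 to 260 CPM in the thick ascending limb gate and under 20 CPM in the proximal tubule gate, while the other 3 genes are highest in the proximal tubule gate.

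The counts of the further gene lists stand beside the shares of all genes given for the members: 2.92% lower and 5.83% higher on day 2, 5.66% and 17% on day 7, and 0.459% and 11% after reversal. On the purer gate those shares were 2.21% and 4.78%, 5.66% and 15.4%, and 0.175% and 3.33%. List counts put no minimum on a gene's level unless 20 CPM is named. Among 9 further genes of phosphate handling, 1 was at least 2 times lower on day 2 than in sham (the scaffold Slc9a3r2) and 1 higher (Slc20a1, the housekeeping carrier PiT-1, at 12.2 and 29.3 CPM). On day 7, 2 were lower (Kl and Slc20a2) and 1 higher (Fgfr1). On the purer gate 0 were lower on either day, with Slc9a3r2 at -0.36 on day 2 and Slc20a2 at -0.79 and Kl at -0.73 on day 7, and 1 was higher on each. Without the cells that passed the phagocyte gate, 1 of 7 with 20 CPM or more was lower on each day, Slc9a3r2 in both. The shares of all genes were then 2.84% and 11%. Slc20a1 on day 2 and Fgfr1 on day 7 were higher in that setting. Of the 7 genes with 20 CPM or more, 1 was lower and 1 higher on each day over all gated cells. The FGF23 co-receptor Klotho, Kl, was 381, 194, 168 and 301 CPM in sham, day 2, day 7 and the reversed library, with log2 ratios to sham of -0.97, -1.18 and -0.34. Its purer-gate ratios were -0.78, -0.73 and -0.05. The apical scaffold Pdzk1 stood at -0.38, -0.92 and -0.50, and the parathyroid hormone receptor Pth1r at -0.22, -0.55 and -0.36. On the purer gate Pdzk1 stood at -0.28, -0.53 and -0.12. Pth1r stood there at -0.11, -0.06 and -0.01, with an interval that included 0 in each case. After reversal 0 of the 9 passed a factor of 2 in either direction, over all gated cells or on the purer gate. Without the cells that passed the phagocyte gate, 1 of 7 with 20 CPM or more was higher after reversal (Slc20a1), beside 6.16% of all genes. The list's median was -0.28, -0.45 and -0.34, and -0.11, -0.18 and -0.01 on the purer gate, beside all-gene medians of 0.01, 0.19 and 0.09, and of 0.02, 0.15 and 0.06 on the purer gate.

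Of 9 further genes of glucose handling, 4 were lower on day 2, 4 on day 7 and 0 after reversal, and 0 were higher in any of these. With 20 CPM or more, 3 of 7 were lower on day 2 and 3 of 6 on day 7. The purer gate left 3 lower on day 2 (G6pc, Slc5a8 and Slc5a10) and, with 20 CPM or more, 1 on day 7 (G6pc). G6pc, the glucose-6-phosphatase of gluconeogenesis, stood at 475, 104, 82.6 and 307 CPM, with log2 ratios to sham of -2.18, -2.51 and -0.63, or -2.00, -1.60 and -0.24 on the purer gate. Pck1, which encodes another gluconeogenic enzyme, stood at 0.07, -0.30 and -0.31, and at 0.23, 0.57 and 0.06 on the purer gate. Pdzk1ip1, the SGLT2 partner MAP17, was 2200, 1750, 866 and 1183 CPM, with ratios of -0.33, -1.34 and -0.89. On the purer gate these were -0.25, -0.87 and -0.56, and Fbp1, another gluconeogenic enzyme, went from -1.21 to -0.58 on day 7, so that neither was lower by a factor of 2 there. Slc5a8 and Slc5a10, monocarboxylate and sugar carriers, stood at -2.04 and -1.80 on day 2 and at -0.13 and 0.47 on day 7. Both were enriched in S3-leaning cells of sham (356 against 18.2 CPM for Slc5a8), and the share of such cells was lowest on day 2. The part of that share in their values was not tested.

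Among 9 sodium, bicarbonate and water genes, 1 was lower on day 2 (Car14, a membrane carbonic anhydrase, -1.35), 2 on day 7 (Car14, -1.78, and the sodium pump subunit Fxyd2, -1.66) and 0 after reversal, with 0 higher. On the purer gate Car14 stood at -1.13 on day 2 and -1.17 on day 7, and Fxyd2 at -1.11 on day 7. Without the cells that passed the phagocyte gate, Car14 was still lower on day 2, but 0 of the 7 genes with 20 CPM or more were lower on day 7, so that both day 7 calls were lost. That day 7 set held 27 cells, under the minimum of 30 set for other gates, and the ratios behind the lost calls are not given here. Of 6 tubule transcription factors 0 were lower in any of the 3 comparisons with sham, and 1 was higher on day 7 (Hnf4g, 6.89 and 31.6 CPM). The purer gate gave 1 higher on day 2 (Hnf4g, at 16.8 CPM) and 2 on day 7 (Hnf4g and Ppara). Hnf4a stood at 281, 191, 176 and 182 CPM, with ratios to sham of -0.56, -0.67 and -0.62, which were -0.43, -0.20 and -0.25 on the purer gate.

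Most injury genes of the list had higher levels than in sham. Of 11 on the list 9 were higher on day 2, 11 on day 7 and 7 after reversal against sham, with median log2 ratios of 4.43, 3.95 and 1.51. With 20 CPM or more, 8 of 8, 10 of 10 and 5 of 6 were higher. Havcr1, the injury marker KIM-1, was 0.405 CPM in sham cells (2 UMIs), 93.5 in day 2, 184 in day 7 and 3.00 in reversed cells. Spp1, osteopontin, stood at 1479, 32617, 20173 and 3795 CPM. On the purer gate 10 were higher on day 2, 9 on day 7 and 7 after reversal. Day 7 levels there were lower than over all gated cells for Spp1 (8719 CPM), Havcr1 (74.2), Lcn2 (56.7, from 266) and Vcam1 (34.9, from 420), each still higher than in sham. The fibrinogen genes went the other way, with Fga at 271 CPM (from 180), Fgb at 56.7 (from 48.2) and Fgg at 410 (from 299). Without the cells that passed the phagocyte gate, which left 27 cells on day 7, 8 of 8 injury genes with 20 CPM or more were higher. The share of all genes was then 17.6%. The part of the phagocyte-rich cells in the day 7 injury levels was not tested further.

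Cells of 1 library were also split by whether they held a UMI of Havcr1, Krt20, Vcam1 or the fibrinogen genes Fga, Fgb and Fgg after thinning. On day 2, 121 cells held one and 244 did not, and Slc34a1 stood at 2298 and 2344 CPM in them (-0.03, -0.33 to 0.27). In the reversed library, 39 cells with such a UMI held 2513 CPM of Slc34a1 and 958 without it held 3683 CPM (-0.55, -0.99 to -0.14). In sham (0.09, -0.20 to 0.35) and on day 7 (0.06, -0.57 to 0.66) the interval included 0, so the reversed library was the only 1 of 4 with a difference beyond counting error. For Slc5a2, Slc2a2 and Slc4a4 the interval of this difference included 0 in every library. Spp1, which was not used for the split, was higher in cells with such a UMI in all 4 libraries, by 0.68 to 1.43 on the log2 scale. The split was made over all gated cells and not on the purer gate. The part of admixed cell types in these differences, that of Slc34a1 in the reversed library included, was not tested.

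The genes whose profile over the 4 libraries was nearest to the phosphate carriers, by the distance between log2 levels, each centred on the gene's own mean, among 6857 genes, were Sardh, Aqp11 and Cmbl for Slc34a1 and Wfdc15b, Cyp2d26 and D630023F18Rik for Slc34a3. Sardh, an enzyme of mitochondrial one-carbon metabolism, stood at 224, 114, 72.9 and 142 CPM. Wfdc15b was the only neighbour of Slc34a3 within 0.5 (0.43), at 99.7, 31.0, 8.26 and 55.0 CPM. A likeness over only 4 libraries describes these profiles and nothing more.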

How the data were processed

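For each of 4 droplet libraries (10x 3′ V2, per the labels' protocols) the authors deposited a matrix of unnormalized UMI counts. Cell Ranger, STAR and builds GRCm38 and mm10 are named in the submitters' processing notes, without versions or settings. The Smart-seq2 sample was not used here. The libraries held 5938 sham, 2739 day 2, 4504 day 7 and 3695 reversed cells with 18649637, 19689924, 30462683 and 22943957 UMIs, and 146 cell barcodes occurred in more than 1 library, 5 of them among gated cells.

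Kept cells had 200 genes or more and no more than 50% of their UMIs from mitochondrial genes. The automatic Scrublet threshold (scanpy 1.11.5) marked 0, 8, 2 and 25 cells, too few to have worked, so the top-scoring cells were left out at a rate of 0.8% for every 1000 cells deposited (187, 48, 160 and 96 cells). This left 3746, 2159, 4287 and 3140 cells. UMIs of gated cells were summed per library and scaled to CPM over the UMIs outside 13 mitochondrial genes, because the median gated cell held 35.6%, 24.6%, 17.7% and 30.3% mitochondrial UMIs. Log2 ratios use a pseudocount of 1 CPM, with exact binomial intervals for ratios, Poisson intervals for levels and Clopper-Pearson intervals for shares. A gene was called at a log2 ratio past 1, over genes with 20 CPM or more in the higher library for the background and with no minimum for members and lists unless stated. As 3′ counts are not per length, levels of different genes were not ranked. Only the log2 ratio with its interval, the factor of 2 rule and the thinning were tested on simulated data. The gates, the doublet step, the segment lean and low counts were not simulated. Sequences and start sites came from RefSeq, and gene positions from the GENCODE annotation of GRCm38.

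The named genes are the 7 members, all other genes of the pathway, injury and marker lists by count, and the 3 nearest profiles to each of the 5 members with 20 CPM or more. A few of these genes are not reported here. Members, lists and rules were chosen with earlier results of these data known. Alternatives covered scaling (TMM in edgeR 4.0.16, size factors in DESeq2 1.42.0, all UMIs), cell filters, gates, depth, weighting, free RNA, pseudocount and doublets. Sums and intervals were computed with scipy 1.17.1 and numpy 2.4.6 in Python 3.11.15, and plots with matplotlib 3.10.9.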

Additional observations from a re-analysis of the deposited data

How the results depend on the processing

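Over 14 other processing choices and 2 more chosen after the phagocyte markers had been seen, 417 of 462 recomputed ratios of single members kept their sign and 45 did not. The lower levels of Slc34a1, Slc34a3 and Slc5a2 on both days of obstruction kept their sign in all settings that gave a value, with Slc34a1 between -1.73 and -0.82 on day 2 and between -2.56 and -0.32 on day 7. Signs turned most often in the reversed library against sham, where 6 of 16 settings turned Slc5a2 and 6 turned Slc4a4.

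Of 154 recomputed counts of members past a factor of 2, 39 were labelled as moved and are given here. Smaller moves are not in this list. For day 7 against sham, Slc4a4 also passed the factor with 2 or more of the 3 gate genes (-1.61). With CPM over all UMIs Slc2a2 did not pass it, at 97.5 CPM on day 7 and 164 in sham. Lower on day 2 than in sham was 1 member with CPM over all UMIs, with 2 UMIs of each gate gene, with equal weights per cell, on the purer gate and without phagocyte-gate cells, 4 with at most 20% mitochondrial UMIs and with thinned cells, and 5 with 2 or more of the 3 gate genes. Lower on day 7 than in sham was 2 on the purer gate and 1 without phagocyte-gate cells; higher was 1 with all UMIs, the 20% limit, thinned cells and equal weights. In the reversed library against sham, lower was 2 with the 20% limit, and 1 with 2 or more gate genes and with under 2 UMIs of other cell types; higher was 1 with thinned cells. From day 2 to day 7, lower was 3 with 2 or more gate genes, 2 with thinned cells and 0 without phagocyte-gate cells; higher was 2 with equal weights and 0 with TMM factors, DESeq2 size factors, 2 or more gate genes, 2 UMIs of each gate gene, a pseudocount of 10 CPM, doublets kept and the purer gate. From day 7 to the reversed library, lower was 1 with all UMIs, the 20% limit, 2 UMIs of each gate gene, thinned cells, equal weights and the phagocyte level subtracted; higher was 4 with 2 or more gate genes and thinned cells, and 1 with the 20% limit and without phagocyte-gate cells.

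The thinned gate held 641, 30, 6 and 235 cells and gave the other sign to 12 of 30 member ratios and a value of 0 to 2 more, with 6 day 7 cells behind each day 7 value. Among values that had been past a factor of 2, the sign turned for Slc2a2 on day 7 against sham (1.63), and the sham ratio of S3-leaning to S1/S2-leaning cells for Slc34a3 (0.021), Slc5a1 (-3.99) and Slc5a2 (0.24). No cell of day 7 had under 2 UMIs of other cell types, so that setting gave no day 7 value. Another scaling moved the median of all genes by 0.20 (day 2), 0.34 (day 7) and 0.15 (reversed, all against sham) for all UMIs, and by -0.13, -0.39 and -0.29 for TMM factors. No paired analysis was possible because each condition is 1 library. The values of Slc9a3 and Slc5a1, and that of Slc34a3 on day 7, stand on few UMIs; for Slc9a3 the reason was not tested.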
